A study of Danio rerio with 3 samples.

Results

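The blood stem and progenitor factors described here are 5 genes, runx1, cmyb, lmo2, meis1 and hlfa. They were listed by symbol, with earlier results of these data known. All 5 were found among the 14581 gene symbols of the double positive library. The series holds 3 RNA-seq libraries from wild-type transgenic zebrafish embryos at 72 hours after fertilization, with 1 library per sorted population and no treatment. The population analysed was kdrl:mCherry+;sele:GFP+, and the others were sorted from kdrl:GFP embryos as GFP positive and GFP negative cells. Embryos were dissociated whole, so each population mixes cells from the entire body, and between 10000 and 300000 cells were collected for each. The kdrl reporter marks endothelium, and kdrl reporters in zebrafish are also known to label blood stem cells newly formed from it. The sele reporter is named for the gene of E-selectin, an adhesion molecule of endothelium that binds leukocytes. The 2 value columns for the kdrl:GFP cells carry codes that no label ties to the positive or the negative population, so they were not used, and no level is given for those cells. With 1 library there is no error between samples and no test. Each value below is 1 estimate of fragments scaled to transcript length and to the fragments of the library (FPKM), and high or low refers to the other genes of the same library.

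Blood stem cells of vertebrate embryos arise from hemogenic endothelium in the wall of the dorsal aorta and then lodge in niches lined by endothelium, in zebrafish first in the caudal hematopoietic tissue. Runx1 is the core-binding factor that drives this change of endothelial cells into blood cells. The cmyb gene encodes the Myb factor that blood progenitors need for definitive hematopoiesis. Lmo2 is a LIM-only adaptor that binds no DNA itself and bridges Tal1, E proteins, Gata factors and Ldb1 in one complex, in blood and endothelial precursors alike. Meis1 is a homeodomain cofactor that binds DNA together with Pbx and Hox proteins, and in mouse it maintains blood stem cells. The hlfa gene encodes a PAR bZIP factor whose mammalian relative, HLF, marks blood stem cells in mouse and human. Several of these genes are thus known both in endothelium and in blood, and a bulk library of sorted cells does not separate the sources.

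The 5 members were listed as 4 abundant transcripts and 1 lower transcript near the library median. The adaptor gene lmo2 was listed at 71.3 FPKM, rank 1163 of the library. The homeodomain gene meis1 was listed at 53.8 FPKM, rank 1572. The PAR bZIP gene hlfa stood at 47.4 FPKM, rank 1774, and cmyb at 40.1 FPKM, rank 2075. These 4 levels spanned a 1.78-fold range from lmo2 to cmyb, and all 4 exceeded the upper quartile of all symbols, 21.0 FPKM. The gene of the core-binding factor, runx1, stood apart at 5.25 FPKM, rank 7627. It was the only member under the library's median of 5.98 FPKM, at 0.879 of it.

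The distance from runx1 to the others was large beside the distances among them. The level of cmyb, the next lowest, was 7.64 times that of runx1, with 5551 symbols between them. The level of lmo2 was 13.6 times that of runx1. By contrast, meis1 exceeded hlfa by a factor of 1.13 and hlfa exceeded cmyb by a factor of 1.18. Between these pairs lay 201 and 300 symbols, and 911 symbols lay between lmo2 and cmyb. Between 242 and 486 other symbols lay within 10% of each member's level. No spread between samples exists here, so the order of lmo2, meis1, hlfa and cmyb among themselves is a listing of single estimates and not a tested order. In bulk cells, fewer cells that transcribe runx1 and less runx1 RNA per cell cannot be told apart.

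**Figure D1:**
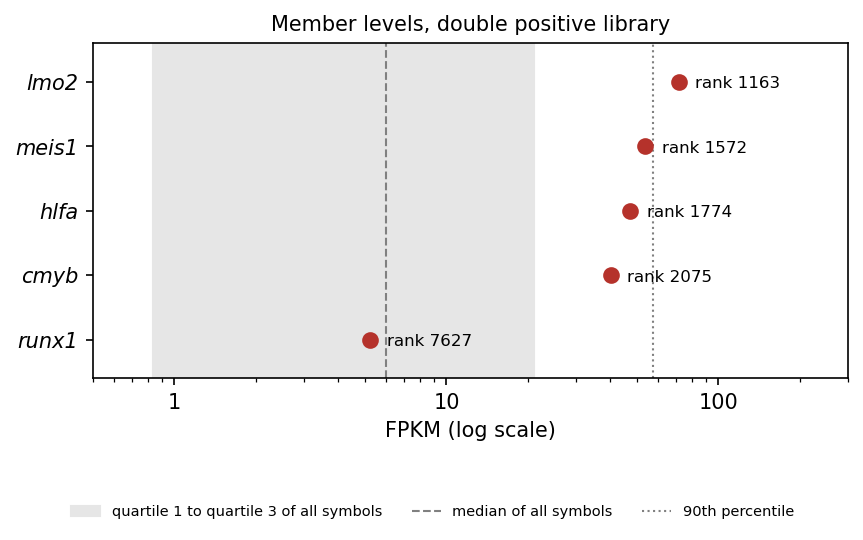
FPKM of the 5 members (points, log axis) in the double positive library, with the rank of each among 14581 symbols. The shaded band runs from the first to the third quartile of all symbols (0.834 to 21.0 FPKM) and the lines mark the median (5.98 FPKM) and the 90th percentile (57.6 FPKM). Only lmo2 passes the 90th percentile, and only runx1 lies inside the shaded band.

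Set in the whole library, 7.97% of symbols were higher than lmo2, 10.8% were higher than meis1, 12.2% were higher than hlfa and 14.2% were higher than cmyb. For runx1 the share was 52.3%. The symbols ranked directly around lmo2 were usp5 at 71.4 FPKM and hspa9 at 71.3 FPKM. Those around meis1 were psmc6 and si:ch211-198a12.6, both at 53.8 FPKM, and those around hlfa were sdr16c5b and rassf1, both at 47.4 FPKM. Around cmyb lay taf10 at 40.2 FPKM and fbxl3a at 40.1 FPKM, and around runx1 lay stard10 and cog8, both at 5.25 FPKM. Of the 5 members, 5 reached 1 FPKM, 4 reached 10 FPKM and 0 reached 100 FPKM. Over all symbols 73.3% reached 1 FPKM, 40.0% reached 10 FPKM and 5.51% reached 100 FPKM.

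A level under the library median was shared by runx1 and the other Runx genes, but not by the partner gene cbfb. Although below the library median, runx1 had the highest level of the Runx genes. Next came runx3, a factor known in blood and neurons, at 2.36 FPKM. The skeletal regulators runx2a and runx2b stood at 1.15 and 0.770 FPKM. The gene of the shared non-DNA-binding partner, cbfb, stood at 17.0 FPKM, 3.24 times the level of runx1. The corepressor gene runx1t1, known as a fusion partner of RUNX1 in human leukemia, reached 25.4 FPKM, and its relative cbfa2t2, matched through a synonym, stood at 5.49 FPKM. Without runx1, the 6 genes found had a median of 3.92 FPKM. The relative cbfa2t3 matched no symbol and was not analysed here.

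Of the Myb genes found, cmyb was the more abundant. The gene mybl2b, listed under the older symbol mybl2 and known for its role in cell division, stood at 24.0 FPKM, so that cmyb exceeded it by a factor of 1.67. The leucine zipper genes cebpa and cebpb, whose products act with Myb on myeloid genes in birds and mammals, stood at 4.58 and 21.2 FPKM. The genes mybl1, mybl2a, ep300a, ep300b, crebbpa and crebbpb matched no symbol and were not analysed here.

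The genes of the Lmo2 complex were mostly abundant, with uneven levels between copies of a gene. Listed as genes of E proteins, the dimer partners of Tal1, tcf3a, tcf3b and tcf12 were the highest at 147.5, 147.0 and 107 FPKM. The helix-loop-helix gene tal1, a master regulator of blood formation, stood at 33.5 FPKM, and lmo2 was 2.13 times as high. Among Gata genes, gata2a, known in endothelium, stood at 54.7 FPKM. Its copy gata2b, known in zebrafish for hemogenic endothelium, stood at 1.27 FPKM, and the erythroid gene gata1a at 8.95 FPKM. The adaptor gene ldb1a stood at 19.2 FPKM and ldb1b was listed at 0, which is not read as absence. Chosen after their values were seen, ldb2a, the gene of the other Ldb adaptor type, stood at 141 FPKM, ldb2b at 1.85 FPKM and tal2, a relative of tal1, at 24.7 FPKM. In all, 10 of 12 listed complex genes were found, with a median of 44.1 FPKM, or 33.5 FPKM without lmo2. Of those found, 7 (70%), lmo2 itself among them, reached 10 FPKM, against 40.0% of all symbols. The genes lyl1 and tcf4 matched no symbol and were not analysed here. The symbols tcf3a and tcf3b have been used for different genes over time. Whether both values belong to E protein genes was not tested, and the count and medians above include them.

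Within the LIM-only family lmo2 was not the most abundant gene. The gene lmo4a, which is transcribed in many tissues, stood at 205.9 FPKM, 2.89 times the level of lmo2. Its copy lmo4b stood at 13.7 FPKM. The relatives lmo1 and lmo3, best known in neural tissue, stood at 3.57 and 1.23 FPKM, so that lmo2 exceeded them by factors of 20.0 and 58.2.

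The level of meis1 lay between those of its Meis relatives and close to those of several Pbx partners. The relative meis2a had the highest level of all family and partner genes examined, 322.9 FPKM, 6.01 times that of meis1. Its copy meis2b stood at 5.72 FPKM and meis3 at 4.16 FPKM. The symbol meis1 belongs to the gene now called meis1b, and the other copy, meis1a, listed as meis4.1a and added after its value was seen, stood at 4.26 FPKM. Of the Pbx genes, which encode the partners that bind DNA with Meis proteins, pbx4 and pbx2 stood at 72.9 and 58.9 FPKM. They were followed by pbx1b at 35.8 FPKM, pbx1a at 26.5 FPKM and pbx3b at 4.80 FPKM. The 8 genes found besides meis1 had a median of 31.1 FPKM. Of these 8 genes, 5 were lower than hlfa, the median member, and 3 were higher, against 12.2% of all symbols. The gene pbx3a matched no symbol and was not analysed here.

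Among the PAR bZIP genes, hlfa had the highest level. Its copy hlfb stood at 4.94 FPKM, so that hlfa was 9.60 times as high. The related genes tefa and tefb, known in zebrafish and mammals as outputs of the circadian clock, stood at 34.1 and 12.7 FPKM, and dbpa and dbpb at 5.43 and 6.79 FPKM. The gene nfil3, whose product represses from the same DNA sites, stood at 16.6 FPKM. The 6 genes found besides hlfa had a median of 9.75 FPKM.

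**Figure D2:**
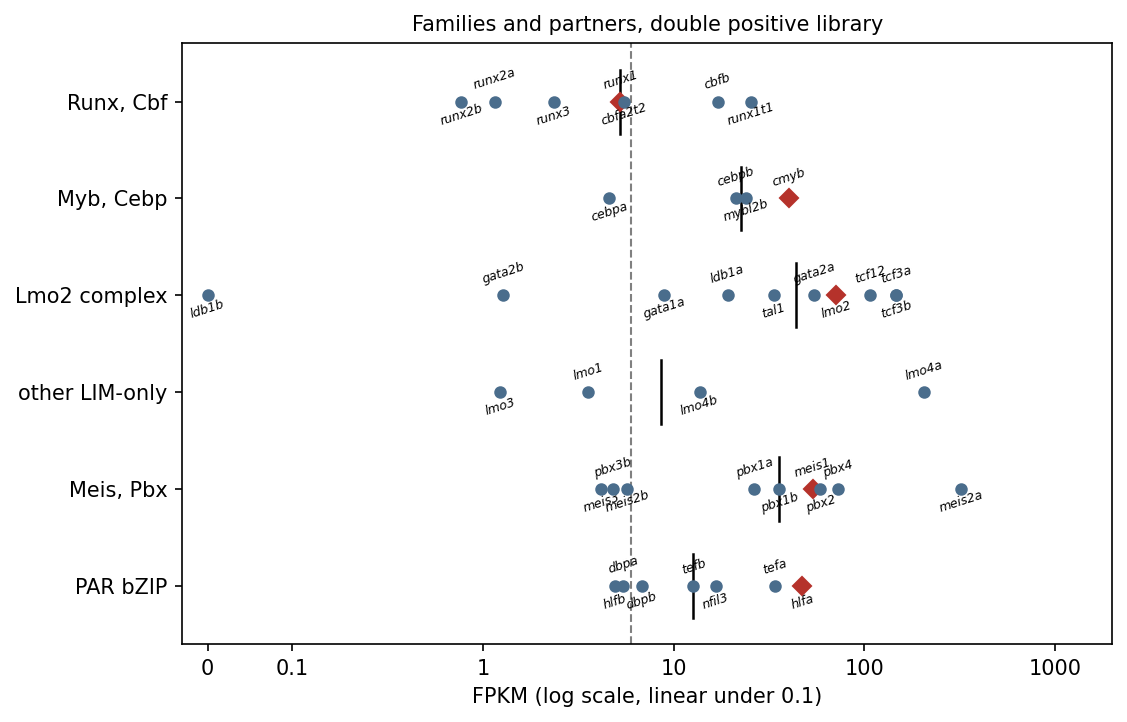
FPKM of the genes of each family or complex found in the double positive library, with members as red diamonds, other genes as blue circles, the median of each row as a short black line and the median of all symbols (5.98 FPKM) as a dashed line. The members cmyb and hlfa are the highest of their rows, while runx1 lies left of the dashed line and meis2a, at 322.9 FPKM, lies farthest right.

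Other genes known from blood stem and progenitor cells had a wide range of levels. Of 20 listed genes 17 were found, with a median of 16.2 FPKM. Among those found, 9 (52.9%) reached 10 FPKM, against 40.0% of all symbols. Lower than cmyb, the lowest of the 4 abundant members, were 11 of the 17, and 6 were higher, against 14.2% of all symbols. The level of hlfa, the median member, was exceeded by 3 of the 17 and by 12.2% of all symbols. Those 3 were the growth regulators mycb and myca at 125 and 50.1 FPKM and the chemokine receptor gene cxcr4b at 79.5 FPKM. The integrin gene itga2b and the thrombopoietin receptor gene mpl, both used as markers of thrombocytes as well as progenitors, stood at 43.2 and 42.4 FPKM. The repressor gene gfi1b, known in stem cells and megakaryocytes of mouse, stood at 42.6 FPKM, while its relatives gfi1ab and gfi1aa stood at 4.14 and 0.815 FPKM. The Kit receptor gene kita, which in zebrafish is known mainly for pigment cells, stood at 21.8 FPKM and its copy kitb at 0.703 FPKM. The second cxcr4 copy, cxcr4a, stood at 21.7 FPKM and the homeobox gene hhex, active in endothelium and blood, at 16.2 FPKM. The zinc finger gene zbtb16a stood at 7.07 FPKM. The lymphoid factor gene ikzf1 stood at 3.92 FPKM, the myeloid Ets genes spi1a and spi1b at 3.73 and 1.85 FPKM, and the Ets repressor gene etv6 was listed at 0. The genes mecom, ptprc and zbtb16b matched no symbol and were not analysed here.

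Counted once each and without the members, the family, partner and progenitor genes numbered 53 found of 66. The 5 members had a median of 47.4 FPKM, against 16.2 FPKM for these genes and 5.98 FPKM for all symbols. Of the 53 genes, 29 (54.7%) reached 10 FPKM and 6 (11.3%) reached 100 FPKM, against 40.0% and 5.51% of all symbols. The median of all symbols was exceeded by 32 of the 53 genes and, by definition, by 7290 of the 14581 symbols. All these genes were listed for their known roles, so their levels set no background for an unselected gene.

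The members were all lower than the endothelial markers, while markers of blood lineages ranged from above all 5 members to a listed 0. All 12 endothelial markers found lay at 89.1 FPKM or more and above each of the 5 members. Of all symbols, 7.97% were higher than lmo2, the highest member. The members had a median of 47.4 FPKM, against 306.7 FPKM for these markers, which is 6.47 times as high. The highest were cdh5 at 843 FPKM, cldn5b at 653 FPKM, pecam1, matched through a synonym, at 430.1 FPKM and kdrl at 428 FPKM. The endothelial label of the sort was thus matched by these markers, although kdrl, whose reporter was used for the sort, is among them. The level of lmo2 was 16.7% of that of kdrl, and the level of runx1 was 1.23% of it. The marker tie1 matched no symbol and was not analysed here.

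All 5 thrombocyte markers found lay between 15.0 and 43.2 FPKM, with a median of 33.6 FPKM. After itga2b and mpl, given above, came the platelet glycoprotein gene gp1bb at 33.6 FPKM and the clotting factor gene f13a1b at 29.3 FPKM. Each of lmo2, meis1 and hlfa was higher than all 5 of these markers, cmyb was higher than 3 of them, and runx1 was lower than all. Of all symbols, 12.2% were higher than hlfa, 14.2% higher than cmyb and 52.3% higher than runx1. The 12 erythroid markers had a median of 10.1 FPKM, led by the embryonic globin genes hbae3 at 252 FPKM and hbae1 at 200.0 FPKM, with hbbe1.1 at 28.5 FPKM and urod at 20.3 FPKM after them. Both hbae genes were higher than all 5 members, and runx1 was lower than 8 of the 12 erythroid markers and than 52.3% of all symbols. Reads may be divided uncertainly between these similar globin copies. The erythroid regulator gata1a stood at 8.95 FPKM. Under the library median of 5.98 FPKM lay the erythroid markers alas2 at 4.56, klfd at 3.46, epb41b at 2.14 and hbbe3 at 0.406 FPKM. The 10 myeloid markers had a median of 9.73 FPKM. The granule genes lyz and mpx stood at 33.4 and 21.4 FPKM, nccrp1 at 25.6 FPKM and the actin-bundling gene lcp1 at 19.3 FPKM. The myeloid markers under the library median were cebpa at 4.58, mfap4 at 2.52, spi1b at 1.85, mpeg1 at 1.43 and csf1ra at 0.942 FPKM. The level of runx1 was lower than 5 of the 10 myeloid markers and than 52.3% of all symbols. The 8 lymphoid markers had a median of 0.276 FPKM, with ccr9a at 13.4 FPKM, ikzf1 at 3.92 FPKM, il7r at 0.887 FPKM, lck at 0.339 FPKM and the recombinase gene rag1 at 0.0704 FPKM, and cd4-1, matched through the older symbol cd4, was listed at 0. Summed levels of the markers found were 164 FPKM for thrombocytes and 551 FPKM for erythroid cells. They were 126 FPKM for myeloid cells, 19.0 FPKM for lymphoid cells and 4212 FPKM for endothelium. The lists differ in size, and hbae3 and hbae1 make up most of the erythroid sum, so the sums do not rank the lineages. The myeloid marker marco and the thrombocyte marker thbs1b matched no symbol and were not analysed here. The part of blood cells of any lineage in the levels of the 5 members was not tested.

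Markers of tissues outside vessels and blood were also detected. Of these, 6 of 7 neuronal and 7 of 7 skeletal muscle markers reached 1 FPKM, as did 73.3% of all symbols. The 7 neuronal markers had a median of 6.41 FPKM, with stmn2a at 24.0 FPKM, snap25b at 14.6 FPKM, sncb at 8.01 FPKM and elavl3 at 6.41 FPKM highest. Under the library median of 5.98 FPKM lay snap25a at 5.23 FPKM, syn2a at 2.82 FPKM and gap43, listed at 0. The 7 skeletal muscle markers had a median of 15.4 FPKM. The highest was pvalb1, a parvalbumin gene, at 61.6 FPKM, followed by mylpfa at 30.4 FPKM, pvalb2 at 27.8 FPKM and tnnt3b at 15.4 FPKM. Lower than the library median were ckma at 5.14 FPKM, actn3a at 1.55 FPKM and the muscle regulator myod1 at 1.47 FPKM. Levels of hlfa, cmyb, meis1 and lmo2 were above all 7 neuronal markers. Most symbols of the library were lower than these 4 members too: only 14.2% were higher than cmyb and 7.97% higher than lmo2. Of the muscle markers, pvalb1 was higher than meis1, hlfa and cmyb and lower than lmo2, and the other 6 were lower than these 4 members. The level of runx1 was lower than 4 of the 7 neuronal markers, 4 of the 7 muscle markers and 52.3% of all symbols. The part of such cells in the levels of the members was not tested.

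**Figure D3:**
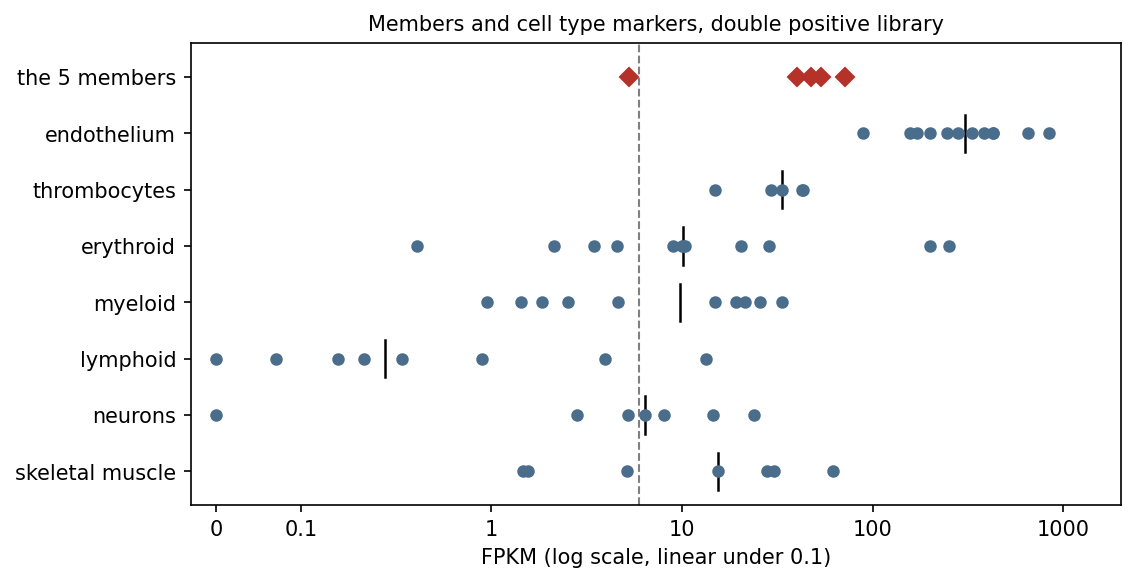
FPKM of the 5 members (red diamonds, top row) and of cell type markers (blue circles) in the double positive library, with the median of each marker row as a short black line and the median of all symbols (5.98 FPKM) as a dashed line. All 12 endothelial markers lie right of all members, the thrombocyte markers end at 43.2 FPKM, and the lymphoid markers have a median of 0.276 FPKM.

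The positions of the members in a current annotation, which is of another assembly than the data, bear on how reads could be assigned. No other annotated gene overlapped lmo2 or cmyb. The span of runx1 was overlapped by the microRNA gene mir459, listed at 0, and that of hlfa by 1 further gene that codes for no protein. The long span of meis1 was overlapped by 14 further genes, 5 of them protein coding. Among these, psap stood at 164.5 FPKM, abcg2c at 21.3 FPKM and c1d at 17.1 FPKM. The overlapping protein-coding genes etaa1b and slc29a3 had no value under these symbols. Whether reads of the overlapping genes entered the value of meis1 was not tested. The protein-coding neighbours of lmo2 differed widely from it and from each other, with caprin1b at 153 FPKM and alx4b at 0.234 FPKM. The neighbours of cmyb were hbs1l at 12.3 FPKM and mtfr2, listed under a provisional symbol, at 9.15 FPKM. Those of meis1 were mrps6 at 15.1 FPKM and spred2b at 72.4 FPKM. Beside hlfa, mmd stood at 41.5 FPKM, and beside runx1, urp2 was listed at 0. The other neighbours of hlfa and runx1 matched no symbol.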

How the data were processed

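RNA of cells sorted at 72 hours after fertilization was sequenced, with 50 ng of total RNA per library per the labels' protocols. Per the submitters' processing notes, the authors used cutadapt, TopHat2 2.0.11 and Cufflinks 2.2.1 with the Zv9 (danRer7) build. The deposited FPKM values are estimates per gene symbol that divide fragments by gene length and library size. The sources used here do not give the annotation, strand, filters or fragment numbers, so depth is unknown and no counting interval is given. FPKM can shift reads between similar copies and can list an active gene at 0. Another 2 per-sample columns, for the kdrl:GFP cells, were not used, since no label ties them to a population. The planned comparisons with those cells were not made.

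From the FPKM values, ranks (1 is highest), rank percentiles (ties at their mean), ratios and list medians were computed in Python 3.11.15 with pandas 2.3.3, and tested on simulated data. Symbols were matched exactly, else through 1 current synonym in a RefSeq gene table of assembly GRCz12tu, which also gave neighbouring genes. No coordinates are printed, because the builds differ. The members and lists were chosen with earlier results of these data known. The genes named are the members, the found family, partner and progenitor genes, and the symbols ranked next to each member. In each marker list they are the 4 highest, the first listed and any listed at 0. For erythroid cells, myeloid cells, neurons and skeletal muscle, markers under the library median are named too. List genes that matched no symbol are also named, as are genes with a value that overlap or lie beside a member. Overlapping protein-coding genes are named with or without a value. Additions are marked. Ranks, matching and scaling were varied.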

Additional observations from a re-analysis of the deposited data

How the results depend on the processing

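Without replicates or counts, every value that moved at all is given. Ranked among symbols above 0 FPKM, the rank percentiles of lmo2, meis1, hlfa, cmyb and runx1 were 90.9, 87.7, 86.1, 83.7 and 40.1, against 92.0, 89.2, 87.8, 85.8 and 47.7 among all symbols. Among symbols at or above 1 FPKM they were 89.1, 85.3, 83.4, 80.6 and 28.6. Without 411 microRNA, small RNA, ribosomal protein and mitochondrial symbols they were 92.4, 89.5, 88.1, 86.0 and 46.9. The order of the 5 genes cannot change between these settings, since all rank the same values. In the settings with a cut at a low FPKM, the percentile of runx1 moved the most by construction. Each symbol left out for a low value lies below all 5 genes, and more symbols rank above runx1 than above the others. Without the 411 symbols, which were left out by name, runx1 fell from 47.7 to 46.9 while the others rose. That shift is not fixed by construction. With all FPKM rescaled to a fixed sum of 1000000, the levels were 133, 100.6, 88.7, 75.1 and 9.83, a common factor of 1.87 that leaves ratios and ranks as they were.

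Of 33 list medians recomputed, 20 were identical, 5 were higher, 8 were lower and 0 moved by over 1.5 times. With exact symbols only, the medians were 3.80 FPKM for the Runx list, 21.2 for the Myb list, 280.4 for endothelium and 0.339 for lymphoid cells. With members above 0 only, they were 54.7 FPKM for the Lmo2 complex, 18.9 for other progenitor genes, 0.339 for lymphoid cells and 7.21 for neurons. Without the 5 members, they were 3.92 FPKM for the Runx list, 21.2 for the Myb list, 33.5 for the Lmo2 complex, 31.1 for the Meis and Pbx list and 9.75 for the PAR bZIP list. No paired analysis was possible because there is 1 library per group and only 1 was used. The settings meant for comparisons with the kdrl:GFP cells (pseudocount, filter, scaling, thresholds on the authors' test) were not run: the columns were not used and the table holds no fold changes or tests. Depth is unknown, so how far it limits the value of runx1 cannot be told.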
